A study of Homo sapiens with 4 samples.

Results

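Imatinib was compared with no imatinib in K562/G01 cells that carry a hairpin against TCF7. Of the 4 libraries in the series, 2 make this comparison, the TCF7 knockdown library with imatinib and the TCF7 knockdown library without it. Genes were compared where they reached 1 CPM, a count scaled to the library total, in at least 2 of the 4 libraries, which 13296 of 28482 genes did. K562/G01 is an imatinib-resistant derivative of K562, an established chronic myeloid leukemia line. The groups were TCF7 knockdown with imatinib (LV-TCF7-RNAi lentivirus, imatinib at 1 µM for 48 hours), TCF7 knockdown (the same lentivirus, no imatinib), scramble with imatinib (LV-Scramble lentivirus, the same dose and time) and scramble (LV-Scramble lentivirus, no imatinib). Each group is 1 library, so every difference below is a size without a replicate check. A log2 ratio is that of CPM after TMM scaling, given as imatinib over none, and its bracketed 95% interval covers counting error only. The hairpin sequence, any clone and whether each group had its own culture are not stated in the labels.

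Imatinib blocks the ATP site of ABL1, and so of the BCR-ABL1 fusion kinase that drives this leukemia, and it also inhibits KIT, PDGF receptors and DDR kinases. BCR-ABL1 signals through RAS and ERK, PI3K and STAT5. Leukemia cells can grow under the drug through changes in the kinase or through other routes. TCF7 is a DNA-binding partner of beta-catenin in the Wnt pathway.

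TCF7 (chromosome 5, 134114711 to 134151865, plus strand, GRCh38) had 117 counts in the imatinib-treated knockdown library and 78 counts in the untreated knockdown library. These are 3.70 CPM and 2.56 CPM, against 10.7 CPM in the imatinib-treated scramble library and 10.2 CPM in the untreated scramble library. Both knockdown libraries thus lay below both scramble libraries, and the ratio within knockdown cells was 0.52 (0.10 to 0.96), or 0.28 with the trend over GC content that is described below removed. TCF7 overlaps SKP1 on the other strand. The 11 erythroid markers listed for K562, among them GATA1, KLF1, HBG1 and TFRC, were all present, the lowest at 58.5 CPM in the imatinib-treated knockdown library and 56.4 CPM in the untreated knockdown library. Of 28 markers of other cells, 15 were under 1 CPM in each knockdown library, including CD3E, MPO and CD79A. Their summed level was 400.1 CPM in the imatinib-treated knockdown library and 422.3 CPM in the untreated knockdown library, and part of it came from EPCAM, KRT19, LYZ and PECAM1. In bulk RNA, fewer cells of a type and less RNA per cell cannot be told apart. The labels give the source as leukocyte, and these are the markers of an erythroid leukemia line. Totals were 31744915 counts with imatinib and 30634832 without it in knockdown cells, and 34095585 and 33146606 in scramble cells.

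At 2-fold or more, 351 genes (2.64% of those compared) were higher with imatinib in knockdown cells and 142 (1.07%) were lower. In scramble cells 111 genes (0.835%) were higher and 63 (0.474%) lower at the same limit. Over all genes the SD of the ratio was 0.436 in knockdown cells and 0.317 in scramble cells. The genes 2-fold higher in knockdown cells had a median level of 2.75 CPM, and 273 of them code for protein. At a mean of 5 CPM or more in the knockdown libraries, 123 of 10106 genes (1.22%) were higher and 9 (0.0891%) lower in knockdown cells, against 4 (0.0396%) and 1 (0.0099%) in scramble cells. At 1.5-fold and the same level, 891 (8.82%) were higher and 102 (1.01%) lower in knockdown cells, against 171 (1.69%) and 26 (0.257%) in scramble cells. The difference between the knockdown and scramble pairs was not tested, since each side of each pair is a single library.

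The ratio went with the GC content of the gene in knockdown cells. When genes were cut into 10 groups of equal size by GC content, in the group with the lowest (median 36.5%) the median ratio was -0.24 in knockdown cells and -0.13 in scramble cells. In the group with the highest (median 63.5%) it was 0.62 in knockdown cells and 0.36 in scramble cells, and that group held 187 of the 351 genes that were 2-fold higher. Across 10095 genes at 5 CPM or more, GC content and ratio had a Pearson r of 0.754 and a Spearman rho of 0.751 in knockdown cells, and 0.689 and 0.682 in scramble cells. These describe genes of the same libraries, and genes are not independent replicates. Chromosome 19, where the median gene has 58.4% GC, had a median ratio of 0.36 in knockdown cells, and chromosome 13, at 41.1% GC, had -0.16. What sets the trend was not tested, and drug treatment and library preparation cannot be told apart with 1 library a side.

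**Figure D1:**
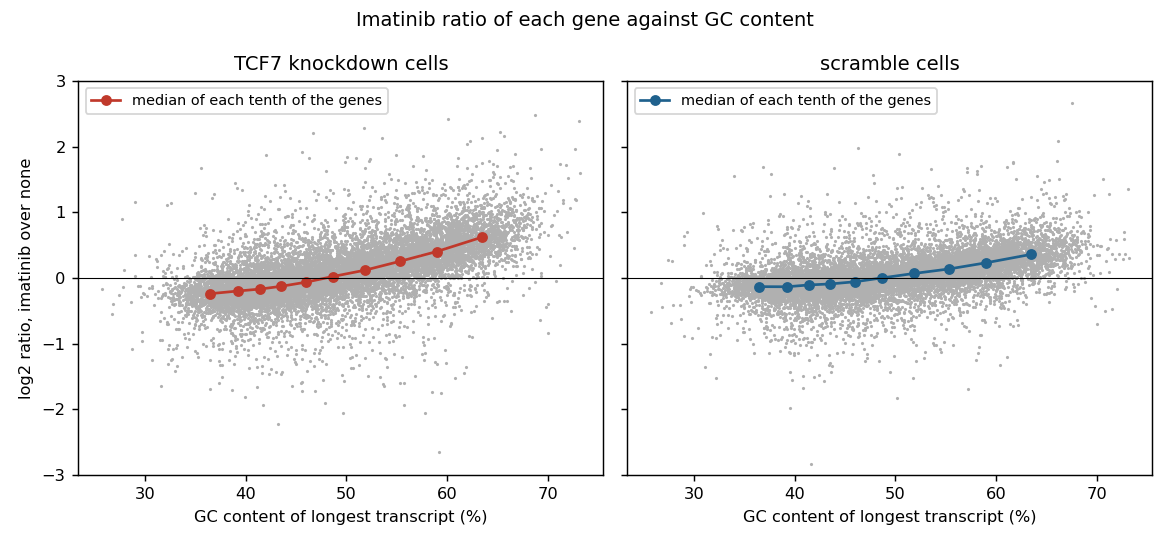
Each grey point is a gene; the horizontal axis is the GC content of its longest transcript in percent and the vertical axis the log2 ratio of imatinib over none, for knockdown cells (left) and scramble cells (right). The coloured points are medians of 10 groups of genes, which run between -0.24 and 0.62 in knockdown cells and between -0.13 and 0.36 in scramble cells; 1 knockdown gene lies outside the axis limit of 3.

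The letters of a gene from either end show how far base composition can differ. The openings of LRFN4, a neuronal adhesion protein among the 15 highest ratios, and HTR1F, a serotonin receptor among the 15 lowest, are printed with G and C in capitals. They are the first 90 coding bases, 5′ to 3′, from GENCODE 29 on GRCh38.
LRFN4: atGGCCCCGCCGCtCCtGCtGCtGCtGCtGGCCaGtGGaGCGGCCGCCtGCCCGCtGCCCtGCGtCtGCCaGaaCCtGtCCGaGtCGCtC
HTR1F: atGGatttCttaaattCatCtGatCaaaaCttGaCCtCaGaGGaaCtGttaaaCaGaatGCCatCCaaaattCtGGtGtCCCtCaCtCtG
LRFN4 lies on chromosome 11 (66856647 to 66860475, plus strand) and has 73.3% GC over these bases. HTR1F lies on chromosome 3 (87990696 to 87993835, plus strand) and has 38.9%. The openings of ZNF787, also among the 15 highest, and DPH6, also among the 15 lowest, lay closer together, at 62.2% and 51.1%. LRFN4 had 633 counts in the imatinib-treated knockdown library and 210 counts in the untreated knockdown library, against 628 in the imatinib-treated scramble library and 349 counts in the untreated scramble library. HTR1F had 9.04 CPM in the imatinib-treated knockdown library and 16.4 CPM in the untreated knockdown library, against 14.6 CPM in the imatinib-treated scramble library and 15.6 CPM in the untreated scramble library. Their ratios in knockdown cells were 1.53 for LRFN4 and -0.85 for HTR1F as measured, and 0.71 and -0.58 with the GC trend removed.

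With the trend over GC content removed, 120 of 13255 genes (0.905%) were 2-fold higher in knockdown cells and 148 (1.12%) 2-fold lower. At 5 CPM or more these counts were 13 of 10097 (0.129%) and 17 (0.168%), and 126 (1.25%) and 85 (0.842%) at 1.5-fold. In scramble cells 29 (0.287%) and 32 (0.317%) passed 1.5-fold at that level. Scramble cells had 79 (0.596%) higher and 62 (0.468%) lower over all genes with the trend removed. Ratios below are as measured unless the trend is said to be removed.

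The 15 protein-coding genes highest as measured, at 5 CPM or more, were OSGIN1 (1.75), LAGE3 (1.74), ZBTB47 (1.71), PPDPF (1.68), EVA1B (1.55), MRPL12 (1.53), LRFN4, MCRIP2 (1.51), FAM109A (1.49), C1orf122 (1.49), APBA3 (1.44), FBXL15 (1.42), ZNF787 (1.41), C20orf24 (1.39) and RABEP2 (1.37). OSGIN1 is a growth inhibitor induced by oxidative stress, LAGE3 a subunit of a tRNA-modifying complex, MRPL12 a protein of the mitochondrial ribosome and RABEP2 an endosomal adaptor. Their median GC content was 64.3%, and all 15 had a positive ratio in scramble cells as well, with a median there of 0.49. The next gene in the ranking was MT-ATP8, at 1.34. Only 6 of the 15 were also among the 15 highest with the trend removed, namely OSGIN1 (1.15), LAGE3 (1.08), ZBTB47 (1.13), MCRIP2 (1.00), APBA3 (1.00) and C20orf24 (1.27). Several of these overlap other genes in the annotation, as LAGE3 does PLXNA3 and C20orf24 does SLA2, so part of their reads may belong to those genes.

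The 15 lowest as measured were HIST2H2AA4 (-1.45), KIT (-1.39), EMILIN2 (-1.16), SC5D (-0.99), BEST1 (-0.97), DDIT4 (-0.93), DPH6 (-0.92), FAM178B (-0.90), HSPE1 (-0.89), ZDHHC2 (-0.89), P4HA1 (-0.88), GCH1 (-0.86), HTR1F, DNAJC27 (-0.82) and ZNF181 (-0.77). EMILIN2 is a glycoprotein of the extracellular matrix, SC5D a desaturase of late cholesterol synthesis, DPH6 an enzyme of diphthamide synthesis, HSPE1 the small subunit of the mitochondrial chaperonin and GCH1 the entry enzyme of tetrahydrobiopterin synthesis. The next gene was ATP1B2, also at -0.77. Among these, 7 were also among the 15 lowest with the trend removed, namely HIST2H2AA4, FAM178B (-1.45), EMILIN2 (-1.40), DDIT4 (-1.30), KIT (-1.26), BEST1 (-1.19) and HSPE1 (-0.97). BEST1 overlaps FTH1, an abundant gene on the opposite strand, and HSPE1 overlaps HSPD1, so their values are uncertain without a stated strand setting. EMILIN2 had 4.14 CPM in the imatinib-treated knockdown library and 9.36 CPM in the untreated knockdown library, against 3.31 CPM in the imatinib-treated scramble library and 3.47 CPM in the untreated scramble library. The knockdown library without imatinib was the high one of the 4.

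HIST2H2AA4 and HIST2H2AA3 are near-identical copies of a histone H2A gene, and reads can be split between them arbitrarily. HIST2H2AA4 had 335 counts in the imatinib-treated knockdown library and 884 counts in the untreated knockdown library, while HIST2H2AA3 had 3757 and 1880. The pair summed to 129.3 CPM with imatinib and 90.8 CPM without it in knockdown cells, a ratio of 0.51 (0.44 to 0.58). In scramble cells the sum was 109.5 CPM with imatinib and 77.7 CPM without it, a ratio of 0.50. The copy at the bottom of the ranking and the sum of both copies thus pointed in opposite directions.

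Genes highest with the GC trend removed were led by MT-ATP8 (1.52), C20orf24 and OSGIN1. They also held AKR1C2 (1.14), AKR1C3 (1.13) and AKR1C1 (1.04), which encode aldo-keto reductases of steroids and reactive carbonyls, and ATP6V1E2 (1.01), MMP24-AS1 (1.00), NINJ1 (1.00), TIMM17B (0.99) and SELENOH (0.99). NINJ1 is a membrane protein that ruptures the plasma membrane in lytic death, TIMM17B a subunit of the mitochondrial import machinery and SELENOH a nuclear selenoprotein. The GC content of these 15 lay between 35.5% and 64.6%, and the next gene was FN1, at 0.98. Genes among the 15 lowest with the trend removed and not named above included HBA1 (-1.24), ZNF467 (-1.04), HBZ (-1.03), EPX (-1.01), EPPK1 (-0.97), ATP1B2 (-0.95) and COPS9 (-0.91), and VEGFA (-0.89) lay just outside. EPX is the eosinophil peroxidase and ATP1B2 a sodium pump subunit.

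NRF2 is a transcription factor that KEAP1 marks for degradation until oxidants or electrophiles release it, after which it drives enzymes of glutathione, thioredoxin, quinone and iron handling. Of 22 genes listed for NRF2 and oxidative stress, 20 were compared, with a median ratio of 0.19 as measured and 0.24 with the GC trend removed in knockdown cells. The medians in scramble cells were -0.03 and -0.02, and that over all genes in knockdown cells was 0.01. At 1.5-fold, 6 of the 20 were higher and 0 lower as measured, where 11.7% of all genes were higher and 3.74% lower. With the trend removed 5 were higher and 0 lower, against 4.1% and 3.7% of all genes. Those 5 were SRXN1, OSGIN1, NQO1, FTL and SLC7A11. In scramble cells 1 of the 20 was 1.5-fold higher and 0 lower on both scales, against 4.4% and 2.37% of all genes as measured and 2.54% and 2.38% with the trend removed. The list was chosen with these ratios known, and OSGIN1 is both a member and the top of the ranking above. SRXN1 passed the filter only through the imatinib libraries, so it could be counted only as higher. The medians and counts of this list therefore describe it and are not a test.

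OSGIN1 (chromosome 16, 83948282 to 83966332, plus strand) had 26.3 CPM in the imatinib-treated knockdown library and 7.75 CPM in the untreated knockdown library, against 21.7 CPM in the imatinib-treated scramble library and 18.0 CPM in the untreated scramble library. The knockdown library without imatinib was the low one of the 4, and the knockdown ratio was 1.75 (1.55 to 1.98). SRXN1, the reductase that repairs overoxidised peroxiredoxins (chromosome 20, 646615 to 653370, minus strand), had 89 counts in the imatinib-treated knockdown library and 18 counts in the untreated knockdown library, against 47 in the imatinib-treated scramble library and 18 counts in the untreated scramble library. Here both imatinib libraries were above both others, with ratios of 2.14 (1.51 to 3.07) in knockdown cells and 1.24 in scramble cells, and SRXN1 passed the filter only through the imatinib libraries. NQO1, a quinone reductase (chromosome 16, 69706996 to 69726951, minus strand), had 183.3 CPM in the imatinib-treated knockdown library and 112.6 CPM in the untreated knockdown library, against 151.8 CPM in the imatinib-treated scramble library and 152.9 CPM in the untreated scramble library. Its knockdown ratio was 0.70 (0.64 to 0.76), and 0.75 with the GC trend removed, against -0.01 in scramble cells.

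Ferritin stores iron in a shell of heavy and light chains. FTL, the light chain, had 3519 CPM in the imatinib-treated knockdown library and 1690 CPM in the untreated knockdown library, against 2480 CPM in the imatinib-treated scramble library and 1912 CPM in the untreated scramble library. FTH1, the heavy chain, had 2247 CPM with imatinib and 1733 CPM without it in knockdown cells, against 2137 CPM and 2176 CPM in scramble cells. The knockdown ratios were 1.06 for FTL and 0.38 for FTH1, or 0.76 and 0.30 with the trend removed, and both chains had their highest level in the knockdown library with imatinib. SLC7A11, the cystine transporter, had 70.5 CPM in the imatinib-treated knockdown library and 50.3 CPM in the untreated knockdown library, both below the 95.8 CPM of the scramble library with imatinib and the 108.7 CPM of the scramble library. Its knockdown ratio was 0.49 as measured and 0.74 with the trend removed. KEAP1 had a ratio of 0.71 as measured but 0.25 with the trend removed. A further 12 members compared lay between -0.30 and 0.32.

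The AKR1C genes are not on that list but are textbook NRF2 targets in human cells. AKR1C1 (chromosome 10, 4963253 to 4983283, plus strand) had 391.9 CPM in the imatinib-treated knockdown library and 209.4 CPM in the untreated knockdown library, against 312.0 CPM in the imatinib-treated scramble library and 319.9 CPM in the untreated scramble library. AKR1C2 had 3572 counts with imatinib and 1762 without it in knockdown cells, against 2410 and 2593 in scramble cells, and AKR1C3 had 1370 and 672, against 1129 and 1211. All 3 were lowest in the knockdown library without imatinib and highest in the knockdown library with it. They are close paralogs, so each value is uncertain, but their summed ratio was 0.92 (0.88 to 0.96) in knockdown cells and -0.07 (-0.10 to -0.03) in scramble cells. NMRAL2P, a transcribed pseudogene reported as an NRF2 target in human cells, had 9.17 CPM with imatinib and 4.34 CPM without it in knockdown cells, against 8.04 CPM and 7.39 CPM in scramble cells.

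**Figure D2:**
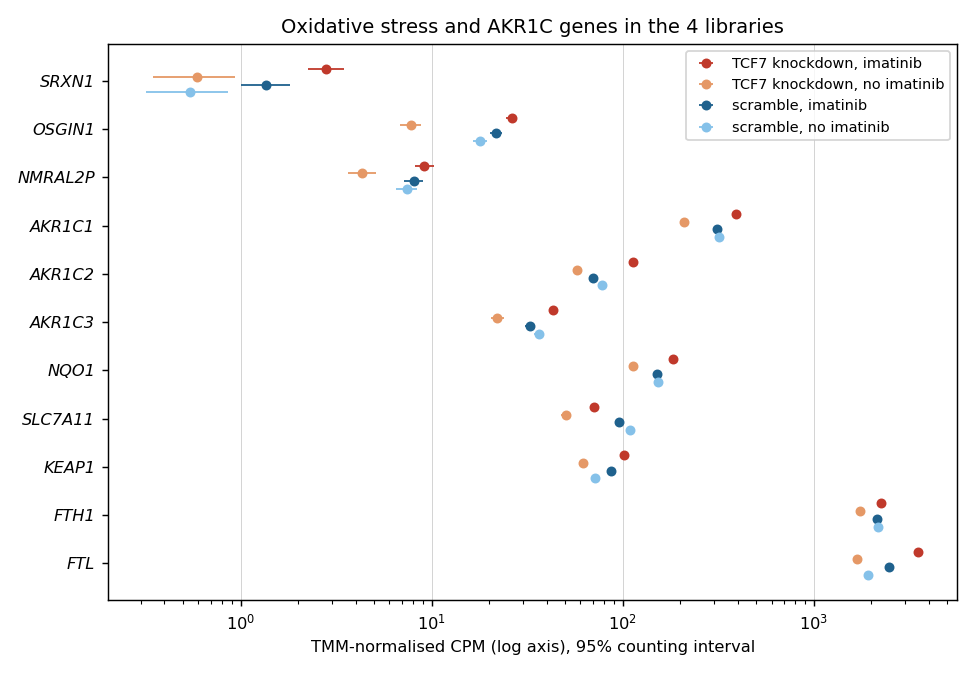
TMM-normalised CPM (log axis) of 11 genes of oxidative stress and the AKR1C family in each of the 4 libraries; bars are 95% counting intervals. The knockdown library with imatinib is above the knockdown library for all 11, as for OSGIN1 at 26.3 CPM and 7.75 CPM. The genes drawn are a selection made with results known, and not the whole NRF2 list. Of the 20 members of that list compared in knockdown cells, 12 had positive and 8 negative ratios as measured. With the GC trend removed 13 were positive and 7 negative.

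The core of the antioxidant response element that NRF2 binds (TGACNNNGC, both strands) was looked for in the 250 bases before each start in the RefSeq promoter table (GRCh38.p14). It occurred in 5 of 26 windows of genes on the list or of the AKR1C family, against 10.91% of all 35116 promoters. Windows and not genes are counted, and some genes, such as SOD2 and GPX4, have several. The matches lay in windows of GCLM, ME1, KEAP1 and TXNRD1. Only some genes of the list had a window, and SLC7A11 and FTH1 were among those without one. None of the windows of SRXN1, OSGIN1, NQO1, FTL or the AKR1C genes held it, which says only that these letters are not in these 250 bases.

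Metallothioneins are small cysteine-rich proteins that bind zinc and copper, and MTF1 drives their genes through metal response elements when zinc is free. They were lower with imatinib in knockdown cells. MT2A (chromosome 16, 56608199 to 56609497, plus strand) had 36 counts in the imatinib-treated knockdown library and 84 counts in the untreated knockdown library, against 464 in the imatinib-treated scramble library and 421 counts in the untreated scramble library. MT1X (chromosome 16, 56682424 to 56684196, plus strand) had 6 counts with imatinib and 22 without it in knockdown cells, against 51 and 71 in scramble cells. MT1G (chromosome 16, 56666731 to 56668065, minus strand) had 0 counts in the imatinib-treated knockdown library and 16 counts in the untreated knockdown library, against 112 and 97 in scramble cells. Within knockdown cells the imatinib library was the lower for each of the 3, and both knockdown libraries lay below both scramble libraries.

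The ratio of MT2A was -1.23 (-1.88 to -0.70) in knockdown cells and 0.08 in scramble cells, and that of MT1X was -1.64 (-3.52 to -0.58) in knockdown cells. By the counts given above, MT1X was also lower with imatinib in scramble cells. A count of 0 allows up to 3 counts in a library. For MT1G that ceiling is 5.54-fold below the untreated level as measured, 0.53 CPM. The counting error of the untreated count is left out, so 5.54-fold is not a lower bound. The 7 MT1 and MT2A genes in the table summed to 42 counts with imatinib and 132 without it in knockdown cells, a ratio of -1.71 (-2.24 to -1.20), against 671 and 639 counts and a ratio of 0.01 (-0.14 to 0.17) in scramble cells. MT1X and MT1G passed the filter only through the scramble libraries, so no median over the list is given. SLC30A1, the zinc exporter, had a ratio of -0.38 in knockdown cells, or -0.17 with the trend removed, and MTF1 -0.11 or -0.08.

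The region before the MT1X start is shown because the metal response element letters repeat there. It is chr16:56682220-56682423 on the plus strand (RefSeq promoter table, GRCh38.p14), 204 bases, with matches to TGCACNC or TGCGCNC on either strand in capitals.
MT1X: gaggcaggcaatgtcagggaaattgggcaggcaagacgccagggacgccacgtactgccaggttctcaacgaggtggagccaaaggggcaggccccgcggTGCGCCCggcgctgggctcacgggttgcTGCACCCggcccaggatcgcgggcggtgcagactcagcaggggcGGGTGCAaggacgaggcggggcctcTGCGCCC
MT1X held 4 matches, MT2A 7 in its own 250 bases, SLC30A1 1 and MTF1 0. Of all promoters, 24.83% held at least 1 match and 1.58% held 3 or more. A match is a description of letters and not of binding.

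KIT, a receptor kinase that imatinib inhibits (chromosome 4, 54657918 to 54740715, plus strand), had 105 counts in the imatinib-treated knockdown library and 268 counts in the untreated knockdown library, against 156 in the imatinib-treated scramble library and 284 counts in the untreated scramble library. Both imatinib libraries lay below both others. The ratio was -1.39 (-1.75 to -1.08) in knockdown cells and -0.91 in scramble cells, or -1.26 and -0.80 with the GC trend removed. Among the other kinases that imatinib binds, DDR1 had 0.61 in knockdown cells, or 0.09 with the trend removed, DDR2 -0.06 or 0.10, ABL2 0.04 or 0.11 and ABL1 0.40 or -0.05.

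**Figure D3:**
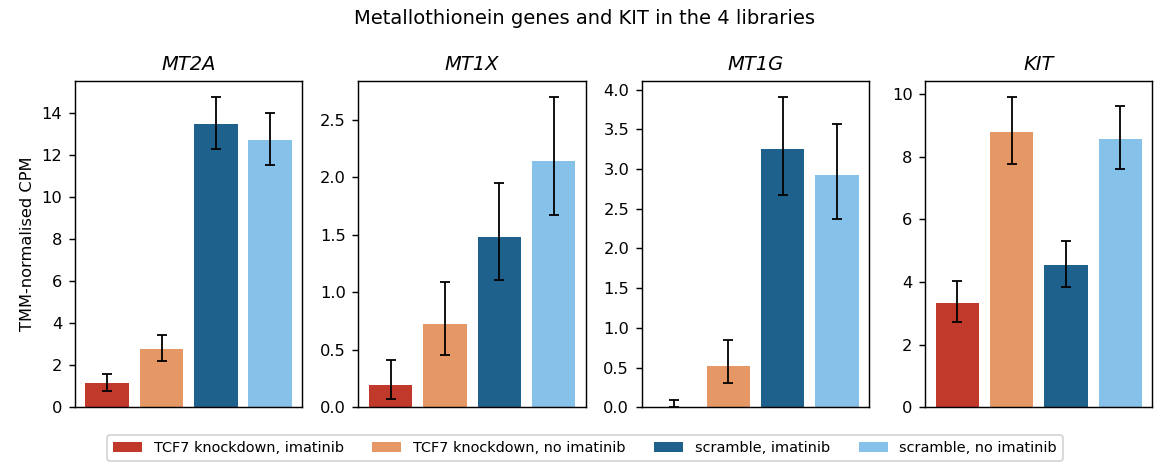
TMM-normalised CPM of 3 metallothionein genes and KIT in the 4 libraries (linear axes starting at 0); bars are libraries and error bars 95% counting intervals. MT2A, MT1X and MT1G are lowest in the knockdown library with imatinib, and KIT is lower in both imatinib libraries.

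Components of BCR-ABL1 signalling had small ratios. Over 34 genes compared the median was 0.08 in knockdown cells, or -0.05 with the trend removed, and 2 were 1.5-fold higher as measured and 0 lower, with 0 and 0 once the trend was removed. Of all genes 11.7% were higher and 3.74% lower at this limit as measured, and 4.1% and 3.7% with the trend removed, and the counts of the lists that follow stand beside these shares. Those 2 were MAP2K2, a kinase that activates ERK (0.90, or 0.40 with the trend removed), and DOK2, an adaptor of tyrosine kinases (0.84, or 0.38). STAT5 target genes had a median of 0.29, or 0.10 with the trend removed, over 15 genes, of which 5 were 1.5-fold higher as measured, where 11.7% of all genes were, and 1 with the trend removed, where 4.1% were. That gene was ID1, an inhibitor of helix-loop-helix factors, at 61.8 CPM in the imatinib-treated knockdown library and 28.9 CPM in the untreated knockdown library, against 55.2 CPM in the imatinib-treated scramble library and 41.5 CPM in the untreated scramble library.

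Immediate early genes, which growth factor signals switch on within minutes, had a median of 0.32 over 26 genes, or 0.11 with the trend removed. As measured 8 were 1.5-fold higher and 0 lower, against 11.7% and 3.74% of all genes, and with the trend removed 2 were higher and 2 lower, against 4.1% and 3.7%. The 2 higher with the trend removed were ID1 (0.71) and IER5 (0.70), and the 2 lower were FOS (-0.62) and ID2 (-0.65), while JUND had 1.02 as measured and 0.14 with the trend removed. ZFP36, which destabilises AU-rich mRNAs, had 0.89 in knockdown cells, or 0.56 with the trend removed, and -0.19 in scramble cells. ERK feedback and output genes had a median of 0.19, or 0.00 with the trend removed, over 19 genes, and 0 of them were 1.5-fold higher or lower as measured, where 11.7% and 3.74% of all genes were. With the trend removed 0 were higher, against 4.1% of all genes, and 2 were lower, against 3.7%, the phosphatase gene DUSP9 (-1.05) and SPRED3 (-0.85), an inhibitor of RAS signalling.

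K562 makes embryonic and fetal globins. Of 10 globin genes 8 were compared, and their median was -0.22 in knockdown cells, or -0.38 with the GC trend removed, against 0.01 and -0.17 in scramble cells. HBG2, a fetal gamma-globin, had 270.1 CPM in the imatinib-treated knockdown library and 354.8 CPM in the untreated knockdown library, against 320.2 CPM in the imatinib-treated scramble library and 382.1 CPM in the untreated scramble library. HBZ, the embryonic zeta-globin, had 90.4 CPM with imatinib and 115.4 CPM without it in knockdown cells, against 102.8 CPM and 97.2 CPM in scramble cells. HBE1, the embryonic epsilon-globin, went the other way, with 1281 CPM with imatinib and 910.4 CPM without it in knockdown cells, against 1261 CPM and 1182 CPM in scramble cells. Its level without imatinib in knockdown cells was the low one of the 4.

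HBA1 and HBA2, the alpha-globin genes, are nearly identical in coding sequence, and their ratios in knockdown cells were -0.51 and 0.92. Their sum was 34.4 CPM with imatinib and 28.2 CPM without it in knockdown cells, a ratio of 0.29 (0.16 to 0.42), against 39.9 CPM, 23.9 CPM and a ratio of 0.74 in scramble cells. The gamma-globin genes HBG1 and HBG2 summed to a ratio of -0.38 (-0.42 to -0.35) in knockdown cells and -0.22 in scramble cells. All 10 globin genes summed to 1781 CPM with imatinib and 1540 CPM without it in knockdown cells, a ratio of 0.21, and HBE1 made up most of that sum. The list median and the summed level thus had opposite signs.

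Red cell membrane and surface genes had a median of -0.09 over 22 genes, or -0.16 with the trend removed, and 18 of the 22 were negative with the trend removed. Of all 13296 genes compared in knockdown cells, 6511 were negative and 6785 positive as measured. With the trend removed 6788 of 13255 were negative and 6467 positive, and the sign counts of the lists that follow stand beside these. RHAG, an ammonia channel of the Rh complex, had -0.37, or -0.23. Heme synthesis and export genes had a median of -0.03, or -0.19 with the trend removed, over 17 genes, and 0 passed 1.5-fold either way. CPOX, coproporphyrinogen oxidase, had -0.50 and ALAS2, the erythroid entry enzyme, -0.26 as measured, or -0.49 and -0.50 with the trend removed.

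Erythroid and myeloid transcription factors had a median of 0.41 as measured and -0.01 with the trend removed over 17 genes, whose median GC content was 55.5%. GATA1 had 133.1 CPM in the imatinib-treated knockdown library and 90.1 CPM in the untreated knockdown library, against 113.7 CPM in the imatinib-treated scramble library and 86.0 CPM in the untreated scramble library, a ratio of 0.56, or 0.08 with the trend removed. KLF1 (0.60, or -0.10) and SPI1 (0.63, or -0.05) had ratios that the trend took up in the same way. LYL1 kept 0.54 of 0.88, and LMO2, a bridging cofactor of the GATA1 complex, was -0.53 as measured and -0.80 with the trend removed. Megakaryocyte and platelet genes had a median of 0.52, or 0.43 with the trend removed, over 6 genes, of which ITGA2B, the alpha-IIb integrin, was at 67 counts with imatinib and 28 without it in knockdown cells. The higher members were weakly expressed, and at a filter of 5 CPM the median was -0.21.

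Markers of other cells moved beside these groups. Among the 28 of them, 13 were compared, with a median of -0.34 in knockdown cells, or -0.32 with the trend removed, and -0.05 in scramble cells, and 12 of the 13 were negative in knockdown cells. EPX had 1111 counts in the imatinib-treated knockdown library and 1601 counts in the untreated knockdown library, against 558 in the imatinib-treated scramble library and 498 counts in the untreated scramble library. CD3G had 2.72 CPM with imatinib and 5.32 CPM without it in knockdown cells, while CD3E was at 2 counts and 0 counts. IL1RL1 had 36.0 CPM with imatinib and 37.6 CPM without it in knockdown cells, against 15.4 CPM and 15.3 CPM in scramble cells. The part of these markers in the erythroid values was not tested.

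Genes of the hypoxia response outside glycolysis had a median of -0.33 over 19 genes in knockdown cells, or -0.21 with the trend removed, against -0.20 and -0.13 in scramble cells. As measured 5 were 1.5-fold lower and 0 higher, against 3.74% and 11.7% of all genes, and with the trend removed 4 were lower and 0 higher, against 3.7% and 4.1%. DDIT4, which restrains mTOR (chromosome 10, 72273920 to 72276036, plus strand), had 12.4 CPM in the imatinib-treated knockdown library and 23.9 CPM in the untreated knockdown library, against 43.8 CPM in the imatinib-treated scramble library and 40.6 CPM in the untreated scramble library. P4HA1, which hydroxylates collagen prolines, had 71.7 CPM with imatinib and 131.6 CPM without it in knockdown cells, against 156.4 CPM and 199.1 CPM in scramble cells. VEGFA, the endothelial growth factor, had 27.7 CPM and 43.6 CPM in the same order in knockdown cells, against 68.5 CPM and 73.8 CPM in scramble cells. All 3 were lowest in the knockdown library with imatinib and lower in both knockdown libraries than in both scramble libraries.

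BNIP3, a mitophagy receptor induced by hypoxia, had 45.3 CPM in the imatinib-treated knockdown library and 70.5 CPM in the untreated knockdown library, a ratio of -0.64, or -0.75 with the trend removed. EPAS1, which encodes HIF2-alpha, was the highest of the list at 0.58, or 0.42. Glycolysis genes had a median of -0.00 as measured, which was above 0 when scaled to total counts, and -0.17 with the trend removed over 24 genes, and 21 of the 24 were negative with the trend removed. LDHA, lactate dehydrogenase, had 604.7 CPM with imatinib and 873.6 CPM without it in knockdown cells (-0.53, or -0.43 with the trend removed), whereas PKM, pyruvate kinase, had 840.1 CPM and 602.3 CPM (0.48, or 0.30). Pentose phosphate genes had a median of 0.37, or 0.14, over 7 genes, led by PGLS, a lactonase (1.08, or 0.56).

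Cholesterol synthesis and uptake genes had a median of -0.06, or -0.21 with the trend removed, over 24 genes, of which 20 were negative with the trend removed. SC5D had 7.11 CPM in the imatinib-treated knockdown library and 14.2 CPM in the untreated knockdown library, against 10.9 CPM in the imatinib-treated scramble library and 13.5 CPM in the untreated scramble library. MSMO1, a methylsterol oxidase, had -0.59, HMGCS1, the HMG-CoA synthase, -0.57 and INSIG1, which retains the sterol sensor, -0.48 as measured, and -0.38, -0.39 and -0.43 with the trend removed. CYP51A1, the lanosterol demethylase, stood apart at 1.09, with 64 counts in the imatinib-treated knockdown library and 28 counts in the untreated knockdown library. Fatty acid synthesis genes had a median of -0.03, or -0.09, and 0 of 12 were 1.5-fold lower.

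The 13 mRNAs that mitochondrial DNA encodes had a median of 0.30 in knockdown cells, or 0.34 with the trend removed, against 0.05 and 0.13 in scramble cells, and 11 of the 13 were positive in knockdown cells. All genes of mitochondrial DNA took 8.28% of the counts in the imatinib-treated knockdown library and 7.32% in the untreated knockdown library, against 6.94% in the imatinib-treated scramble library and 6.76% in the untreated scramble library. MT-ND2, a complex I subunit, had 5919 CPM with imatinib and 4339 CPM without it in knockdown cells, against 4166 CPM and 3876 CPM in scramble cells. MT-ATP8, a short ATP synthase gene that overlaps MT-ATP6, had 819.8 CPM and 324.7 CPM in knockdown cells, against 460.4 CPM and 270.2 CPM in scramble cells, and MT-ATP6 had a knockdown ratio of 0.35. MT-ND3 was the lowest, at -0.31. The part of that share in other genes' ratios was not tested.

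Nuclear respiratory chain subunits had a median of -0.04, or -0.11 with the trend removed, over 78 genes, and mitochondrial ribosomal proteins 0.01, or -0.01, over 77, the first of which was below 0 with DESeq2 size factors. NDUFA13 was the highest subunit at 1.68, but with 61 counts with imatinib and 17 without it in knockdown cells and overlapping genes. NDUFC2, another complex I subunit, was the lowest at -0.68, or -0.62 with the trend removed. Cytosolic ribosomal proteins had a median of -0.06, or -0.07, over 79 genes, with RPL41 at 0.72, or 0.71, and RPS13 at -0.43, or -0.58. Replication-dependent histone genes had a median of 0.26 over 53 genes and 0.00 with the trend removed.

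Among pro-apoptotic genes BAD and BBC3 were the highest. BAD, which binds BCL2L1, had 230 counts in the imatinib-treated knockdown library and 67 counts in the untreated knockdown library, against 116 in the imatinib-treated scramble library and 99 counts in the untreated scramble library. Its ratio was 1.70 (1.33 to 2.14), or 0.97 with the trend removed, and GPR137 overlaps it on the other strand. BBC3, which encodes PUMA, had 1.29, or 0.41, in knockdown cells and 1.27, or 0.79, in scramble cells. BCL2L11, which encodes BIM, had 56.3 CPM with imatinib and 58.8 CPM without it in knockdown cells, against 45.1 CPM and 48.3 CPM in scramble cells. The median over 15 pro-apoptotic genes was -0.04, or 0.01 with the trend removed, and that over 9 anti-apoptotic genes -0.08, or 0.02, with BCL2L1 at 0.69, or 0.37.

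G2/M and mitosis genes had a median of -0.22 over 33 genes, or -0.08 with the trend removed, and 24 of the 33 were negative as measured and 26 with the trend removed. CENPE, a kinetochore motor, had 232.1 CPM with imatinib and 333.2 CPM without it in knockdown cells (-0.52, or -0.27), and 0 members passed 1.5-fold. G1/S and replication genes had a median of -0.03, or -0.11, over 35 genes, with CDT1, a licensing factor, at 0.71, or 0.04. CDKN1A, which encodes the p21 inhibitor, had 80 counts in the imatinib-treated knockdown library and 43 counts in the untreated knockdown library, against 90 in the imatinib-treated scramble library and 85 counts in the untreated scramble library. MYC had 423.4 CPM with imatinib and 345.8 CPM without it in knockdown cells, against 408.5 CPM and 339.4 CPM in scramble cells, ratios of 0.29 and 0.27.

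In amino acid metabolism PHGDH, the entry enzyme of serine synthesis, stood out from its list. It had 169.6 CPM in the imatinib-treated knockdown library and 99.3 CPM in the untreated knockdown library, against 210.7 CPM in the imatinib-treated scramble library and 237.5 CPM in the untreated scramble library, a knockdown ratio of 0.77 (0.71 to 0.84), or 0.63 with the trend removed. The other serine, one-carbon and asparagine genes left the list median at 0.01, or -0.16, over 16 genes, and the first was below 0 with DESeq2 size factors. Amino acid transporters had a median of 0.11, or -0.04, over 16 genes, with 4 of them 1.5-fold higher as measured, against 11.7% of all genes, and 1, SLC7A11, with the trend removed, against 4.1%. SLC3A2, the partner chain of SLC7A11 and SLC7A5, had 158.9 CPM with imatinib and 94.0 CPM without it in knockdown cells (0.76, or 0.42), and SLC7A5 89.3 CPM and 56.1 CPM (0.67, or 0.17). Integrated stress response regulators had a median of 0.07, or 0.02, over 18 genes.

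Lysosome and autophagy genes had a median of 0.12, or 0.02, over 41 genes. SQSTM1, the autophagy receptor p62, had 258.1 CPM in the imatinib-treated knockdown library and 160.1 CPM in the untreated knockdown library, against 260.6 CPM in the imatinib-treated scramble library and 229.0 CPM in the untreated scramble library, a knockdown ratio of 0.69, or 0.32 with the trend removed. CTSL, a lysosomal protease, had 0.62, or 0.47, and CTSD, another, 1.16, or 0.53. Chaperones and genes of the unfolded protein response had a median of 0.08, or 0.02, over 25 genes, with DNAJB9 at -0.75, or -0.58, and HSP90B1 at 1189 CPM with imatinib and 1597 CPM without it in knockdown cells. Interferon-stimulated genes had a median of 0.36, or 0.06, over 12 genes, and NF-kB subunits and targets 0.53, or 0.05, over 12. Heat shock and cytosolic chaperones had a median of -0.15, or -0.09, over 25 genes, of which 20 were negative with the trend removed. Among 368 zinc finger genes of the ZNF series the median was -0.10 as measured, with 216 negative, and 0.00 with the trend removed, with 185 negative.

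Wnt pathway regulators and targets had a median of 0.32 in knockdown cells, or 0.15 with the trend removed, over 22 genes, against 0.19 and 0.11 in scramble cells, and 18 of the 22 were positive in knockdown cells on both scales. As measured 3 were 1.5-fold higher and 0 lower, and with the trend removed 0 were higher and 1 lower, which was TLE2 (-0.97), a corepressor, and 3 of 22 is near the 11.7% of all genes that were higher as measured. DVL1, a cytoplasmic signal carrier, had 0.89, or 0.12, and PYGO2, a beta-catenin coactivator, 0.78, or 0.47. LEF1, a relative of TCF7, had 17.5 CPM in the imatinib-treated knockdown library and 22.0 CPM in the untreated knockdown library, against 23.5 CPM in the imatinib-treated scramble library and 20.3 CPM in the untreated scramble library. CTNNB1, which encodes beta-catenin, had -0.08, or 0.03. ABC transporters had a median of 0.30, or -0.02, over 22 genes. ABCB1, the multidrug efflux pump, had 0 counts in the imatinib-treated knockdown library and 4 counts in the untreated knockdown library, against 13 in the imatinib-treated scramble library and 11 counts in the untreated scramble library, and was below the filter.

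**Figure D4:**
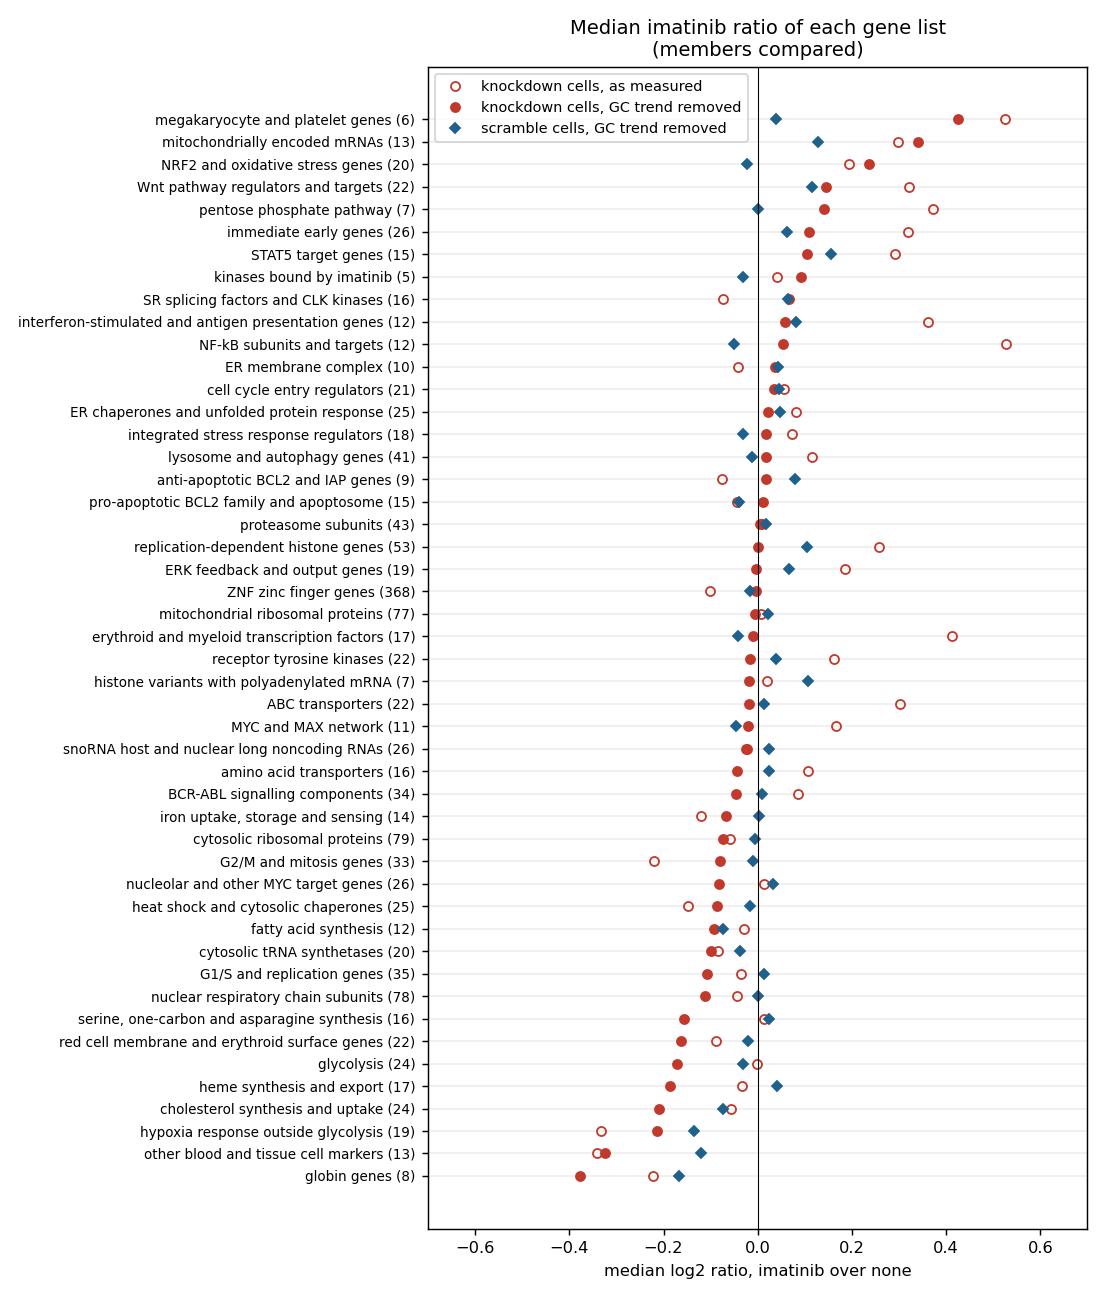
Median log2 ratio of imatinib over none for 48 gene lists (number of members compared in brackets); open circles are knockdown cells as measured, filled circles knockdown cells with the GC trend removed, diamonds scramble cells with the trend removed. Globin genes lie farthest left at -0.38 with the trend removed, the list of metallothioneins is not drawn, and lists such as the transcription factors (0.41 as measured, -0.01 with the trend removed) close up on 0.

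Of transcripts that do not code for protein and had a mean of 5 CPM or more in the knockdown libraries, the highest were ARRDC1-AS1 (1.15), NMRAL2P (1.07), RP13-1032I1.7 (1.04), RP5-1171I10.5 (1.00), GLUD1P3 (0.98) and NOC2LP1 (0.98). At the same level the lowest were RP11-124N14.3 (-1.58), RP5-940J5.9 (-1.14), RP11-234A1.1 (-1.10), LL22NC03-2H8.5 (-1.09), RPL9P9 (-1.07) and RP11-251G23.5 (-1.01). RP11-124N14.3 had 2.72 CPM in the imatinib-treated knockdown library and 8.25 CPM in the untreated knockdown library, against 4.73 CPM in the imatinib-treated scramble library and 6.49 CPM in the untreated scramble library. RP11-124N14.3 lies opposite VIM and RP5-940J5.9 opposite GAPDH, both abundant genes, so their reads are uncertain. SNHG19, a host of small nucleolar RNAs, had 8.79 CPM with imatinib and 4.53 CPM without it in knockdown cells, a ratio of 0.95, or 0.66 with the trend removed.

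Genes past 2-fold were set beside those of scramble cells, where 0.835% of all genes were higher and 0.474% lower. Of the genes 2-fold higher, 34 were so in both pairs, which is 9.69% of the knockdown list and 30.6% of the scramble list. Of those 2-fold lower, 8 were shared, or 5.63% and 12.7%. With the trend removed, where 0.596% and 0.468% of all genes passed in scramble cells, 7 were shared in each direction, 5.83% and 8.86% of the lists for higher and 4.73% and 11.3% for lower. Other genes passed 2-fold the opposite way in scramble cells. As measured these were 5 of the higher and 4 of the lower genes, and with the trend removed 5 and 5. Over 10105 genes at 5 CPM or more the ratios of the pairs had a Pearson r of 0.713, and with the trend removed, over 10095 genes, 0.381. The pairs share no library, but both follow GC content.

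Among protein-coding genes with a mean of 5 CPM or more over the 4 libraries, those whose ratio in knockdown cells was farthest above that in scramble cells were OSGIN1 (a difference of 1.48), ZBTB47 (1.33), NINJ1 (1.21), DNAJC17, CEBPB, DHRSX, LAGE3 and COG8 (1.15). At the same level those farthest below were ZNF140 (-1.54), MT2A (-1.32, with under 5 CPM in each knockdown library), EMILIN2 (-1.10), DDIT4 (-1.04), HBA1 (-1.04), ATP1B2, DUSP19 and FAM178B. NINJ1 had 16.5 CPM in the imatinib-treated knockdown library and 6.54 CPM in the untreated knockdown library, against 10.6 CPM in the imatinib-treated scramble library and 9.81 CPM in the untreated scramble library. FAM178B had 255 counts with imatinib and 458 without it in knockdown cells, against 910 and 887 in scramble cells. These differences were not tested.

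**Figure D5:**
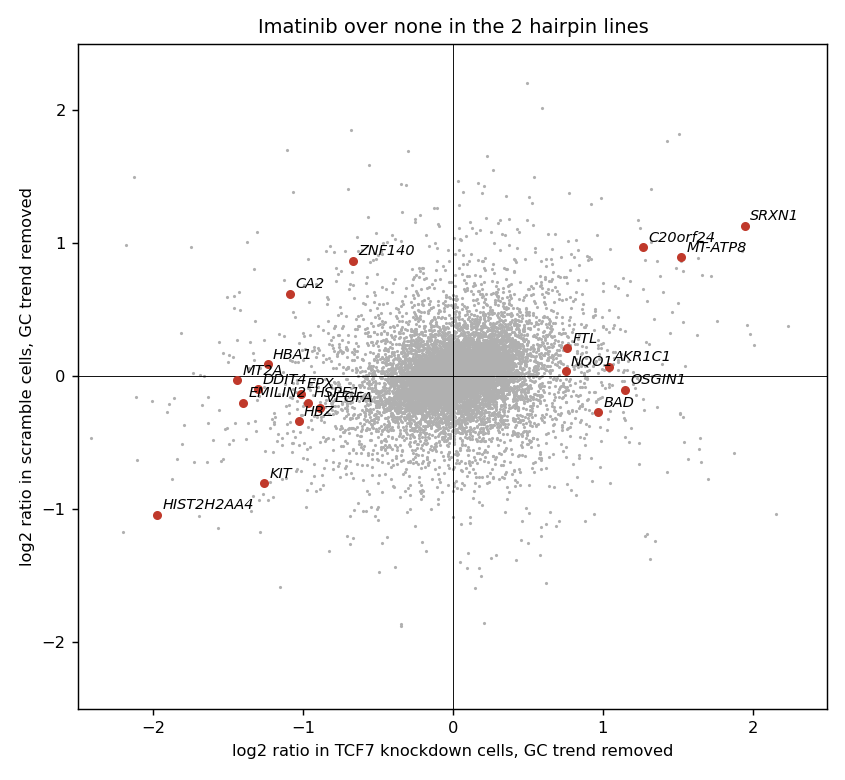
Each grey point is a gene, with the log2 ratio of imatinib over none in knockdown cells (horizontal) and in scramble cells (vertical), both with the GC trend removed; red points are named, and 3 genes lie outside the axis limits of 2.5. OSGIN1, AKR1C1 and NQO1 lie near 0 in scramble cells while SRXN1, C20orf24, KIT and HIST2H2AA4 lie off 0 in the same direction in both.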

How the data were processed

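RNA of 4 K562/G01 samples was sequenced after ribosomal RNA depletion and directional library preparation, per the labels' protocols. The submitters' processing notes name FastQC, HISAT2, HTSeq 0.6.1 and GRCh38. For the annotation release and the strand setting the entry is "not given in the sources used here", so overlapping genes are uncertain. The authors deposited whole-number counts per gene, used unchanged, and columns headed FPKM, treated as a score because 6 genes have negative values. The deposited log2 columns were not used.

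Ratios are log2 of CPM after TMM scaling (edgeR 4.0.16, R 4.3.3, prior count 2). GENCODE 29 matched 28329 of 28482 genes, and a smooth over the GC content of the longest transcript (mgcv 1.9.3) gave the trend for 13255. Exact binomial intervals at 95% cover counting error alone, because no spread between replicates enters them. Sequenced reads need not be separate molecules, so the intervals may be too narrow even for that. With 1 library per group no test was made. The steps were tested on simulated counts that held counting noise only, with changes placed in genes at 5 CPM or more. That checks the steps and not the ratios reported here.

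The members, lists and naming rule were chosen with earlier results of these data known. The rule takes TCF7, 15 coding genes at either end with and without the trend (mean of 5 CPM or more), 6 noncoding at either end, 8 at either end of the difference between pairs, up to 8 members per list (all where 12 or fewer were compared) and 12 set genes such as KIT. FOS, ID2, TLE2, FN1 and the family sums were singled out after their values were seen. Alternatives were DESeq2 1.42.0 size factors, total counts, other filters, a prior count of 0.5, thinned counts, a 1.5-fold limit, the deposited FPKM columns and a trend with transcript length. Some genes that the rule takes are not reported here.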

Additional observations from a re-analysis of the deposited data

Results flagged for a closer look

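Over all genes compared, 37 of the 1555 genes 1.5-fold higher in knockdown cells were 1.5-fold lower in scramble cells. Of the 497 genes 1.5-fold lower in knockdown cells, 38 were 1.5-fold higher in scramble cells. Of all genes compared, 2.37% were 1.5-fold lower and 4.4% higher in scramble cells. The first count is near that share of all genes, and neither count was tested. Among the genes that the naming rule takes, 5 were flagged for ratios of imatinib over none with opposite signs in knockdown and scramble cells. Each ratio was 1.25-fold or more, with both counting intervals off 0. The difference between the pairs was not tested for any of them. The naming rule itself takes genes at either end of that difference, ZNF140, HBA1 and DHRSX among them. Those genes were thus partly chosen for the contrast that is flagged. CA2, the carbonic anhydrase of red cells, had -1.16 in knockdown cells and 0.55 in scramble cells. Its difference of -1.72 was larger than any in the ranking of differences above. CA2 was left out there because it lay under the mean of 5 CPM that the ranking needs, so its ratios rest on low counts. HBA1 had -0.51 in knockdown cells and 0.53 in scramble cells, and its near-identical copy HBA2 had 0.92 and 0.99. With the GC trend removed HBA1 had -1.24 and 0.09, so its scramble ratio was under the 1.25-fold limit. ZNF140, a zinc finger gene, had -0.73 in knockdown cells and 0.81 in scramble cells. DHRSX, a dehydrogenase gene, had 0.69 in knockdown cells and -0.48 in scramble cells. SNHG11, a host of small nucleolar RNAs, had 0.53 in knockdown cells and -0.55 in scramble cells, and its counts were low, at 203 with imatinib and 135 without it in knockdown cells. With the trend removed SNHG11 had 0.26 and -0.70, so its knockdown ratio was under the limit. CA2, ZNF140 and DHRSX stayed past the limit on both sides with the trend removed.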

How the results depend on the processing

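No paired analysis was possible because each group is 1 library and no test was made; leaving out a library ends the comparison. The counts of 351 higher and 142 lower genes in knockdown cells, and of 120 and 148 with the GC trend removed, depended on the filter. Without a filter they were 2309, 2225, 1865 and 2012, and at 5 CPM 124, 14, 12 and 21. A 1.5-fold limit gave 1555, 497, 543 and 490. The deposited FPKM columns gave 90 lower genes, and 75 higher and 97 lower with the trend removed, while the 265 higher genes stayed within 1.5 times. DESeq2 size factors, total counts, a prior count of 0.5, thinned counts and a trend with length kept these counts within 1.5 times. Scaling moved the median of all genes by less than 0.1. The median of megakaryocyte genes turned to -0.21, or -0.18 with the trend removed, at a 5 CPM filter, and list medians near 0 changed sign under some settings. Depth limits genes of few counts, such as the metallothioneins, and the causes of these moves were not tested.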
